A study of Mus musculus with 4 samples.

Results

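The translation initiation factors (eIF) and elongation factors (eEF) are described here across 4 arrays of mouse epididymal white fat. They were taken as every gene whose only symbol in the array's probe annotation begins with Eif or Eef and then a digit, which gave 49 of the 8251 genes with 1 symbol. Each gene is represented by the probe set with the highest mean over the 4 arrays. A further probe set that the annotation gives to several genes, among them a factor gene, was left out. The rule used symbols alone and no measured value, apart from the mean that picks between probe sets. The group includes kinases, inhibitors and a methyltransferase that carry an eIF or eEF symbol without being factors themselves.

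RNA was pooled from fat of male C57BL/6 mice aged 3 to 4 months, and each pool was hybridised to its own array. The control pool stood beside pools from mice given CL 316243 at 3 nmol/hr for 1, 3 or 6 days, a compound that activates the β3-adrenergic receptor of fat cells (the titles of the day 1 and day 3 arrays spell its number 316234). All 4 groups share sex, strain and age, and the sources used here do not give the number of mice in a pool, how the compound was delivered or what the control mice received. With 1 array per group there are no replicates, so no test was run and no p-value is given.

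Protein synthesis starts when eIF2 brings the initiator tRNA to the small ribosomal subunit and eIF4F, which binds the cap of the mRNA, recruits that subunit to the message. eEF1 then delivers each aminoacyl-tRNA to the ribosome and eEF2 moves the ribosome along. Phosphorylation of eIF2α slows initiation throughout the cell, and the eIF4E-binding proteins block cap binding until the mTOR kinase, which insulin activates in fat cells, phosphorylates them. These controls act mainly on proteins, which an RNA array does not measure.

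Intensities were scaled to a common mean. Values below a floor of 173 intensity units, the 40th percentile, were raised to it before any ratio was taken, so that a ratio with a value at the floor is a lower bound. Of the 49 genes, 44 exceeded the floor on 1 array or more, and 38 had a mean of at least 2 times the floor. Between 59.9% and 60.2% of the probe sets of an array lay above the floor. For the error of a log2 change, 735 genes with 2 probe sets were used, from how far their probe sets disagreed. It was 0.32 at day 1, 0.26 at day 3 and 0.25 at day 6, and 3 such errors make a 1.96-fold, a 1.73-fold and a 1.68-fold change. The error covers disagreement between probe sets on the same arrays. It holds no variation that the probe sets of an array share, and none between mice or pools.

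Markers of several cell types differed between the pools. All 15 fat cell markers measured exceeded the floor on some array, as the tissue label implies, and all 15 were lower at day 1 than in control. Their summed intensity was 388044 in control and 230408, 375736 and 431903 on days 1, 3 and 6. The 24 macrophage and myeloid markers summed to 78465 in control and to 180271, 178167 and 97464, and the 13 neutrophil markers to 8323, 87711, 9527 and 4813, with Mpo and Ngp below the floor on all arrays. The day 1 neutrophil sum is mostly S100a8, at 40305, and S100a9, at 26727. Of the 11 neutrophil markers above the floor, 6 were at least 2-fold higher at day 1 and 2, Prtn3 and Elane, at least 2-fold lower. Camp was also below control at day 1, at 242 against 460. The 9 brown and beige fat cell markers summed to 2816, 5712, 15198 and 19791, with Ppargc1a and Zic1 below the floor on all arrays. The day 3 and day 6 sums are mostly Cox8b, at 9551 and 15473. Ucp1 was highest at day 1, at 3056, and read 1501 and 1190 later. Of the 7 markers above the floor, 4 were above control at day 1, 6 at day 3 and 5 at day 6. Lcn5, a secreted protein of the epididymal epithelium, stood at 3321, 63, 7 and 8029, and Adam7, another epididymal gene, at 2654, 200, 251 and 1846. The part of these differences in the values that follow was not tested. In RNA from whole tissue, fewer cells of a type and less RNA per cell cannot be told apart.

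The comparison of each treated day with control asks which transcripts β3-adrenergic stimulation changed, and the translation factors were mostly close to control on every day. Past 2-fold, 1 of the 49 genes was lower at day 1 and 0 were higher, where 6.35% of the 8251 genes were lower and 5.71% higher. The gene was Eif4ebp1, an inhibitor of the cap-binding protein eIF4E. At day 3, 0 of 49 were past 2-fold in either direction, against 2.88% of all genes higher and 2.47% lower. At day 6 the count was again 0 of 49 in either direction, against 1.31% higher and 1.24% lower.

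Past 1.5-fold, a size within 3 errors on each day, 3 genes were higher at day 1 (Eif6, Eif1a and Eif4a1) and 1, Eif4ebp1, was lower. The shares of all genes were 12.1% and 14%. At day 3, 3 were higher (Eif4e2, Eef1b2 and Eif3f) and Eif4ebp1 was lower, where 7.55% and 8.05% of all genes were. At day 6, 0 were higher and 1, Eif2ak3, was lower, against 6.02% and 5.95%. Between treated days, 0 of 49 genes passed 2-fold in either direction. For day 3 against day 1 the shares of all genes were 4.41% higher and 4.79% lower, and for day 6 against day 3 they were 1.14% and 2.01%.

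**Figure D1:**
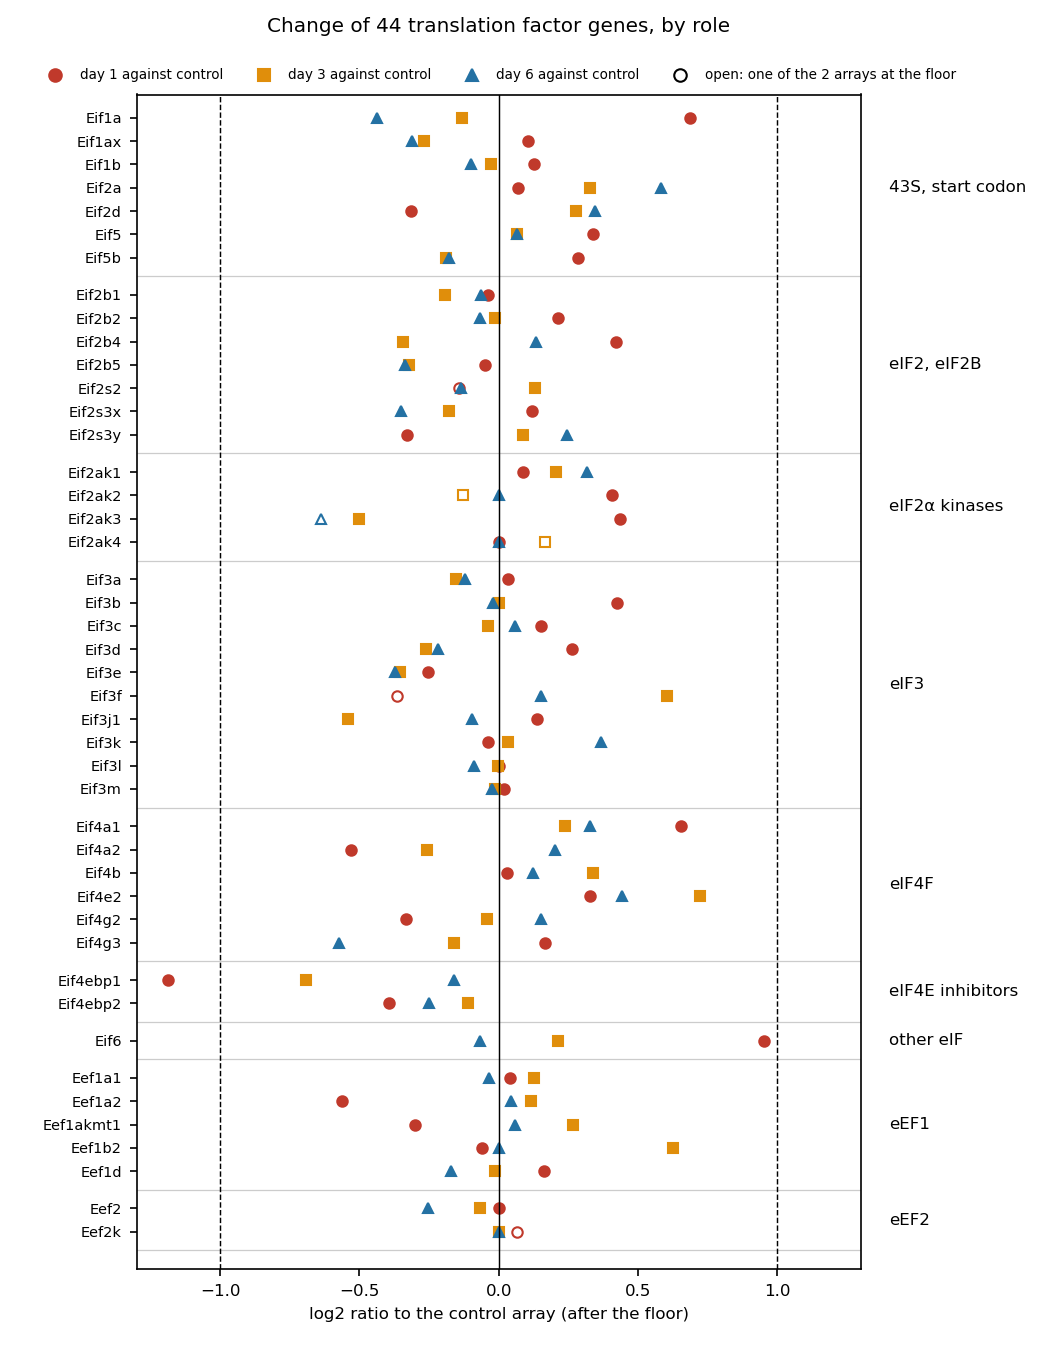
Log2 ratio of each treated array to the control array for the 44 translation factor genes above the floor on at least 1 array, grouped by role; circles are day 1, squares day 3 and triangles day 6, open symbols have 1 of the 2 arrays at the floor, and dashed lines mark 2-fold. Eif4ebp1 at day 1, at -1.19, is the only point past 2-fold, and Eif6 at day 1, at 0.95, lies just inside.

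The median log2 change over all 49 genes was 0.03 at day 1, -0.00 at day 3 and -0.00 at day 6, and the median over all 8251 genes was 0 on each day. Among the 44 genes above the floor, 28 were above control and 15 below at day 1, 17 above and 26 below at day 3, and 16 above and 26 below at day 6. Their log2 changes spanned -1.19 to 0.95 at day 1, -0.69 to 0.72 at day 3 and -0.64 to 0.58 at day 6.

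The size of change was compared with that of all genes above the same minimum signal, the factor genes included, which does not match the signal gene by gene. Among genes with a mean of at least 2 floors, the median size of the log2 change at day 1 was 0.19 over 38 factor genes and 0.41 over 4799 genes. At day 3 the values were 0.18 and 0.28, and at day 6 they were 0.17 and 0.25. Among genes with a mean of at least 16 floors, 2768 units, the day 1 values were 0.14 over 19 factor genes and 0.43 over 1249 genes. At that signal 1 of the 19 and 19.2% of the 1249 were past 2-fold at day 1.

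Seen over all 4 arrays, the highest and the lowest value of a gene differed by no more than 1.5-fold for 26 of the 38 factor genes (68.4%) and for 41.5% of the 4799. The day 1 array held the highest value for 20 of the 38, against 31.5% of the 4799 genes, and the lowest for 10, against 39.4%. Day 6 held the lowest value for 15, against 23.1% of genes. As these are single arrays, the counts describe these pools.

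**Figure D2:**
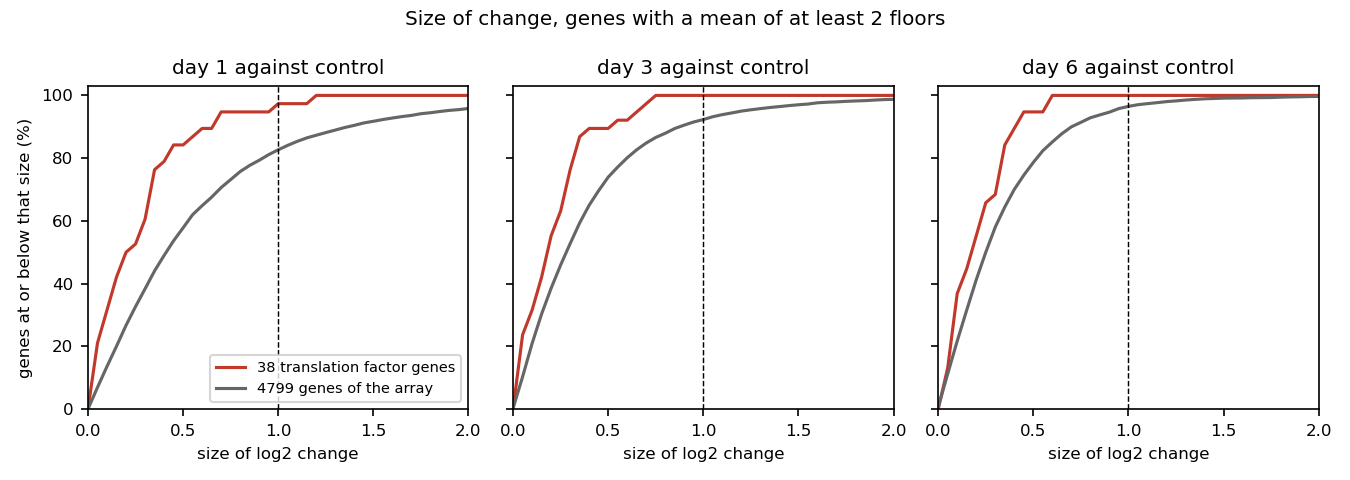
Cumulative share of genes by the size of their log2 change from control, in percent, for the 38 translation factor genes and for the 4799 genes of the array with a mean of at least 2 floors; the dashed line marks 2-fold. The factor genes lie above the 4799 genes, which include them, or level with those at every size above 0, with median sizes of 0.19 against 0.41 at day 1.

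The inhibitors of eIF4E held the one change past 2-fold. Eif4ebp1, which encodes the binding protein that sequesters eIF4E when mTOR is inactive, stood at 5077 in control, 2228 at day 1, 3139 at day 3 and 4541 at day 6. It was lowest at day 1 and higher on each later array, and it was below control on all 3. The fold differences from control were 2.28-fold, 1.62-fold and 1.12-fold lower, and only the first is larger than 3 errors. The summed fat cell markers were also lowest at day 1 and next lowest at day 3, and their part in the Eif4ebp1 values was not tested.

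Eif4ebp2, the related inhibitor, stood at 5819, 4430, 5388 and 4893, which is 1.31-fold lower at day 1. A second probe set of the gene read 586, 604, 592 and 546 and did not show that difference. Eif4enif1, which carries eIF4E into the nucleus, stayed below the floor on all 4 arrays. The target of these proteins, Eif4e, read 102, 93, 80 and 93, below the floor on every array, and its second probe set was below the floor too. Such readings give a bound and do not show that the transcript was lacking.

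Among the other subunits and helpers of eIF4F, the helicase genes Eif4a1 and Eif4a2 lay on opposite sides of control at day 1. Eif4a1 stood at 1960, 3082, 2311 and 2460, which is 1.57-fold higher at day 1. Eif4a2 stood at 7058, 4887, 5910 and 8110, which is 1.44-fold lower at day 1 and above control at day 6, with a log2 change of 0.20. Eif4a1 was highest and Eif4a2 lowest on the day 1 array, and neither difference from control reaches 3 errors. The Eif4a1 probe set carries a suffix that marks probes not meeting all design rules. Both genes encode closely related RNA helicases that unwind the leader of the message.

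Eif4g2, a scaffold related to eIF4G that works without the cap-binding protein, stood at 1211, 961, 1176 and 1346. Its values stayed within 1.26-fold of control, with the lowest at day 1. Eif4e2, a cap-binding homologue of eIF4E that represses translation of bound messages, stood at 528, 662, 871 and 717, which is 1.65-fold higher at day 3. Its second probe set was at 263, 364, 286 and 235, with a log2 change of 0.12 at day 3 against 0.72 for the first. Eif4g3 was 1.49-fold lower at day 6, at 561 against 835, and Eif4b, which assists the helicase, was within 1.26-fold of control on each day. A second Eif4b probe set, at 736, 772, 662 and 596, was below control at day 3 where the first was above. Eif4h was below the floor throughout. Of the 6 genes of this complex above the floor, 4 were above control at day 1, 3 at day 3 and 5 at day 6, and 0 passed 2-fold.

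**Figure D3:**
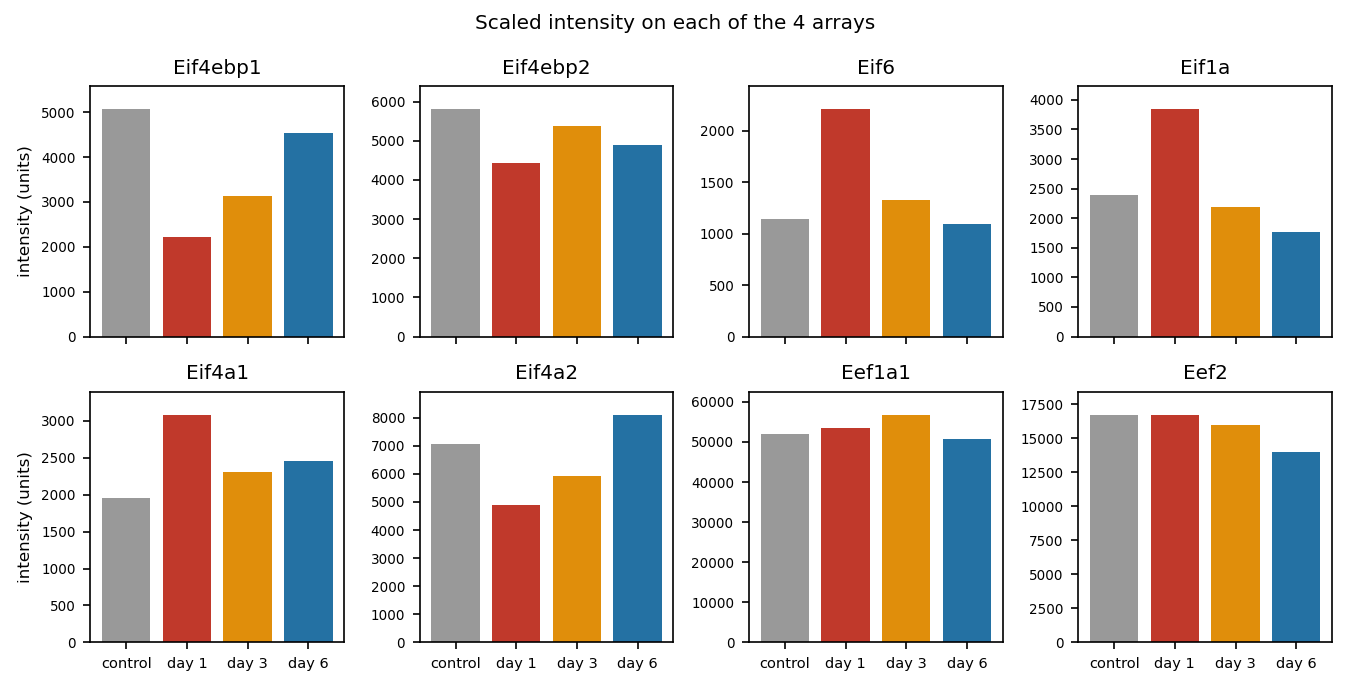
Scaled intensity on the control, day 1, day 3 and day 6 arrays for 8 genes, 1 bar per array and a linear axis from 0 in each panel; panels have their own scale, since signals of different probe sets do not compare. Eif4ebp1 is lowest at day 1, at 2228, Eif6, Eif1a and Eif4a1 are highest there, and Eef1a1 stays between 50787 and 56832.

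Eif6, whose product keeps the large ribosomal subunit apart from the small one and serves in its assembly, was the factor gene furthest above control. It stood at 1145 in control, 2214 at day 1, 1326 at day 3 and 1093 at day 6. The day 1 value is 1.93-fold higher, just under the 1.96-fold of 3 errors, and the other 3 arrays lie close together. Eif5a, which encodes the factor that carries the modified lysine hypusine and helps ribosomes past stalling sequences, was below the floor on all 4 arrays at 82, 126, 12 and 110.

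The factors that act with the small subunit at the start codon had a median log2 change of 0.13 at day 1, with 6 of 7 above control. Eif1a, which helps the subunit scan for the start codon, stood at 2389, 3850, 2183 and 1764. It was 1.61-fold higher at day 1 and 1.35-fold lower at day 6. Its second probe set, at 1346, 1686, 1485 and 1067, had the same highest and lowest arrays with smaller differences. Eif1ax, the X-linked gene of a nearly identical protein, was within 1.24-fold of control by its first probe set, at 3707, 3988, 3077 and 2990. Its second probe set, at 634, 423, 606 and 395, was below control at day 1 where the first was above. Eif2a, an alternative carrier of initiator tRNA, stood at 911, 955, 1144 and 1364 and was highest at day 6, with a log2 change of 0.58. Eif5, the activator of eIF2's GTP hydrolysis, Eif5b, which joins the subunits, Eif1b and Eif2d stayed within 1.27-fold of control by their brightest probe sets. The second Eif5b probe set, at 223, 235, 21 and 164, was below the floor at days 3 and 6.

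For eIF2 itself and its exchange factor eIF2B, 7 genes were above the floor and 0 passed 1.5-fold on any day. Eif2s3x, the X-linked gene for the GTP-binding subunit, stood at 6470, 7036, 5724 and 5077 and was lowest at day 6, with a log2 change of -0.35. Its Y-linked partner Eif2s3y stood at 1034, 822, 1097 and 1224 and was highest at day 6, with a log2 change of 0.24. The pair thus lay on opposite sides of control on each day, by less than 3 errors. The Y-linked probe set carries a suffix that marks sequences shared within a family, and whether it also reads the partner was not tested. Eif2s2 was near the floor, between 120 and 209. Of the eIF2B genes, Eif2b4 varied most, at 772, 1033, 609 and 847, and Eif2b1, Eif2b2 and Eif2b5 stayed within 1.26-fold of control.

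The kinases that phosphorylate eIF2α give dim signals. Eif2ak1, the heme-regulated kinase, was the only one with a mean of at least 2 floors and stood at 1352, 1435, 1559 and 1683, higher on each later array, with a log2 change of 0.32 at day 6. Eif2ak3, the kinase of endoplasmic reticulum stress, stood at 269, 364, 190 and 102. It was highest at day 1 and below the floor at day 6, at least 1.56-fold lower than control. Eif2ak2, the interferon-induced kinase that double-stranded RNA activates, stood at 189, 251, 152 and 189, and Eif2ak4, which senses uncharged tRNA, at 155, 129, 194 and 86. After the floor, 0 of the 4 kinases were past 2-fold on any day, although with a floor at 58 units Eif2ak3 was, with a log2 change of -1.40 at day 6.

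The 10 subunits of eIF3, the scaffold of the initiation complex, had median log2 changes of 0.03 at day 1, -0.03 at day 3 and -0.06 at day 6. Eif3c, whose probe set was among the 3 brightest of the group, stood at 9371, 10398, 9119 and 9758. Eif3m stood at 3977, 4028, 3942 and 3914, a range of 1.03-fold over the 4 arrays, and Eif3l at 8877, 8886, 8861 and 8338. All 3 stayed close to control on every day. Eif3e, at 3265, 2737, 2557 and 2523, was below control on all 3 treated arrays, by 1.29-fold at day 6. Eif3b, one of the core subunits, was 1.34-fold higher at day 1 and close to control later, at 3952, 5307, 3950 and 3894. Eif3j1, a loosely bound subunit, was 1.46-fold lower at day 3, at 2347 against 3417, and Eif3k was 1.29-fold higher at day 6. Subunits thus lay on both sides of control. Eif3f, near the floor at 223, 137, 339 and 248, was 1.52-fold higher at day 3. Eif3a and Eif3d stayed within 1.20-fold of control.

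The elongation factor genes Eef1a1 and Eef2 were also among the 3 brightest probe sets and hardly varied. Eef1a1, which delivers aminoacyl-tRNA in most tissues, stood at 52023, 53462, 56832 and 50787, a range of 1.12-fold. Eef2, the translocase, stood at 16699, 16728, 15949 and 13989 and was 1.19-fold lower at day 6. Eef2k, the kinase that inhibits eEF2, was near or below the floor at 160, 181, 74 and 21, and past 2-fold lower at days 3 and 6 only with the floor at 58 units (log2 -1.11 and -1.46).

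Eef1a2, the form of eEF1A that replaces Eef1a1 in muscle and neurons, stood at 496, 336, 537 and 511 and was lowest at day 1, with a log2 change of -0.56. The 14 skeletal muscle markers summed to 8436, 6733, 7137 and 7220, with 7 of them (Ckm, Myh1, Myh2, Tnnt3, Tnni2, Ryr1 and Mb) below the floor on all arrays, and their part in the Eef1a2 signal was not tested. Among the exchange factor genes, Eef1d stayed between 3407 and 4293, Eef1b2 was 1.54-fold higher at day 3, at 718 against 465, and Eef1g was below the floor on every array. Eef1akmt1, a methyltransferase acting on eEF1A, was at 769, 624, 926 and 801. The Eef1b2 probe set used carries the same suffix as that of Eif4a1, and the second probe set of Eef1b2 was below the floor throughout.

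Sequences around the annotated transcription start are shown for 4 genes whose start base lies within a run of C and T. They are also shown for Eif4a1 and Eef2, 2 genes with the same E-box letters and different day 1 changes. Many messages of the translation machinery begin with a run of C and T, through which mTOR controls their translation. RefSeq windows of GRCm38.p6, from 250 bases before the start to 50 from it on, matched 41 of the 49 genes. Eif4ebp1, Eif6 and Eif1a, which were past 1.5-fold at day 1, had no window. A run of at least 8 C or T letters across the start base was found for 5 of the 41 genes (12.2%: Eef1a1, Eif2b5, Eif2s3x, Eif3f and Eif3l). It was found for 4.59% of the 27025 genes with RefSeq windows, which are not limited to genes of the array or to genes above the floor. For 4 of them the 15 bases before and the 15 from the start on are shown 5′ to 3′, with that run in capitals. Letters before the start base count toward the run but are not in the message. Whether these messages begin with such a run was not tested.
Eef1a1, chr9:78481710-78481739, minus strand: gctggctccgCCCTCTTCCCgagggtgggg
Eif3l, chr15:79075208-79075237, plus strand: gcgcggagTTCTTCTTCCgctctctcccac
Eif3f, chr7:108934400-108934429, plus strand: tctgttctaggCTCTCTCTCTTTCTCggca
Eif2s3x, chrX:94212637-94212666, minus strand: ctgccgagcaTTTTCCTTTTCTCTCCgagc

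The E-box letters CACGTG, which Myc and related factors bind, lay in the window of 10 of the 41 genes (24.4%). The share was 8.09% of the 27025 genes with RefSeq windows, where a gene with several windows counts once. Those genes were not matched to the factor genes by presence on the array or by signal. The sequence reads the same on both strands. Of the 10, Eif4h, Eif4e and Eif5a were below the floor on all arrays. The others had day 1 log2 changes of 0.65 for Eif4a1, 0.13 for Eif1b, 0.06 for Eef2k, 0.03 for Eif3a, 0.00 for Eef2, -0.04 for Eif3k and -0.37 for Eif3f. These genes with the same letters stood above, at and below control, and Eif4ebp1, Eif6 and Eif1a had no window to search. The cAMP response element TGACGTCA, also the same on both strands, was in the window of 1 gene, Eef2, and of 2.03% of the 27025 genes. The letters TGATGNAAN, bound by ATF4 and its partners and searched on both strands, were in those of Eef2k and Eif2s3x and of 4.50% of the 27025 genes. A match is a description of the letters and not a site shown to be used. The stretches of Eif4a1 and Eef2 are shown 5′ to 3′, with CACGTG, and in Eef2 also TGACGTCA, in capitals. The Eif4a1 stretch holds the 200 bases before the start, and the Eef2 stretch the 60 before it and 12 from it on.
Eif4a1, chr11:69672424-69672623, minus strand: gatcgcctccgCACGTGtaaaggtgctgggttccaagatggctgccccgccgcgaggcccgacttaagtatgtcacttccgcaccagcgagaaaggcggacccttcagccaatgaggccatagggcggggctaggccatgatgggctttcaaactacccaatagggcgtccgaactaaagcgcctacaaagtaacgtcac
Eef2, chr10:81176571-81176642, plus strand: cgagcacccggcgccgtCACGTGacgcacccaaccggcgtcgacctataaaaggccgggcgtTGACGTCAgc

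Lists of genes around translation were described on the same arrays. Over all 8251 genes, the shares past 2-fold were 5.71% higher and 6.35% lower at day 1, 2.88% and 2.47% at day 3, and 1.31% and 1.24% at day 6. Of the 8251, 6269 were above the floor on some array, and the rest cannot pass 2-fold. The list counts leave such genes out, so these shares are low beside them. Of 38 ribosome biogenesis and Myc genes above the floor, 8 were at least 2-fold higher and 0 lower at day 1 (against 5.71% and 6.35% of all genes), with 34 above control and a median log2 change of 0.46, where the 44 factor genes had 28 above control and a median of 0.05. Myc, a transcription factor that drives ribosome production, went from 156 to 446, at least 2.58-fold higher, and was at 296 and 140 on days 3 and 6. Gnl3, a nucleolar GTPase, stood at 474, 1259, 516 and 487, and Mxd1, a partner of Max that opposes Myc, went from below the floor to 1297, at least 7.50-fold higher. At days 3 and 6, 0 of the 38 were past 2-fold, with medians of 0 and -0.04.

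The integrated stress response follows eIF2α phosphorylation. Of 22 of its target genes above the floor, 6 were at least 2-fold higher and 0 lower at day 1 (against 5.71% and 6.35% of all genes). The median log2 change was 0.49, with 17 genes above control and 5 below. Those below were Asns, Cebpg, Psat1, Psph and Shmt2, with log2 changes of -0.33 to -0.56. Ppp1r15a, which brings a phosphatase to eIF2α, stood at 261, 849, 261 and 150 and was 3.25-fold higher at day 1. Ddit4, an inhibitor of mTOR signalling, stood at 1461, 3885, 850 and 1642. Cebpb, a transcription factor shared by stress, inflammatory and fat cell programmes, stood at 3550, 15215, 4878 and 4824. Several genes of this list are expressed in myeloid cells, whose markers were also higher at day 1, and their part was not tested. At day 3 the count was 1 higher and 0 lower, where 2.88% and 2.47% of all genes were, and at day 6 it was 0 higher and 2 lower, where 1.31% and 1.24% were.

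Of 32 partners and regulators of the factors, 1 was higher and 1 lower by 2-fold at day 1, which is no more than the 5.71% and 6.35% of all genes, and the median was 0.19. The lower gene was Pdcd4, which inhibits the eIF4A helicase, at 3382, 1310, 2869 and 3718, 2.58-fold lower at day 1. The higher was Pelo, a ribosome rescue factor, at 303, 606, 218 and 377, with a day 1 ratio just at the threshold. Its second probe set, at 194, 331, 256 and 153, was above control at day 1 by less than 2-fold. At days 3 and 6 the 2 probe sets lay on opposite sides of control. At days 3 and 6, 0 of the 32 passed 2-fold in either direction.

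Of 25 cytosolic ribosomal protein genes above the floor, 1 was higher (Rpl13a, from 1309 to 3092) and 1 lower (Rpl22, from 801 to 267) past 2-fold at day 1, and 0 later, with medians of 0.17, 0.03 and -0.18. The second probe set of Rpl22 read 278 in control and 284 at day 1. Of 21 genes above the floor on a list of tRNA synthetases and their scaffold proteins, which also holds the scaffolds Aimp1 and Aimp2 and the mitochondrial synthetase Fars2, 1 was higher at day 1, Farsa at 2.03-fold, and 0 lower, with medians of 0.34, -0.17 and -0.23. Of 37 genes of mitochondrial translation, 0 passed 2-fold on any day, with 10 above control at day 1 and 25 at days 3 and 6, and medians of -0.20, 0.10 and 0.20. The 3 comparisons share the control array.

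**Figure D4:**
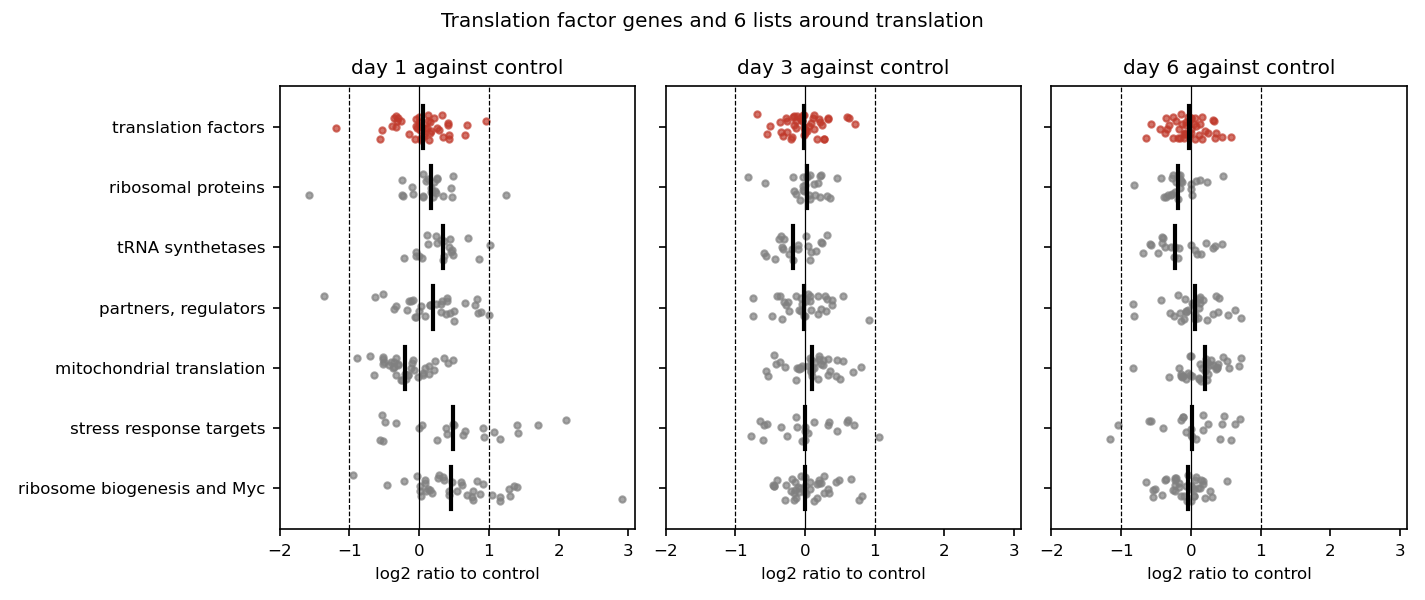
Log2 ratio to control for the 44 translation factor genes and for the genes above the floor of 6 lists around translation, 1 panel per treated day; points are genes, black bars list medians and dashed lines 2-fold. At day 1 the medians are 0.05 for the factor genes, 0.49 for stress response targets, 0.46 for ribosome biogenesis and Myc and -0.20 for mitochondrial translation.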

How the data were processed

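Epididymal fat RNA was measured on 4 arrays, 1 for each pool. The authors deposited 1 intensity per probe set on a linear scale, and 12.2% to 12.4% of the values of an array are at or below 0. Software, background step and normalization are not stated in the sources at hand. The 4 columns share their distribution (medians 314 to 314.5), so a change common to most genes would not appear. From 12488 probe sets, arrays were scaled to the same trimmed mean, which left out values under the 2nd and over the 98th percentile (factors 0.999 to 1.001), floored at the 40th percentile and put on the log2 scale, and 66 control probe sets were then left out. A gene counted as past 2-fold from a ratio of 2 up. Printed intensities are scaled and not floored.

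Entrez identifiers of all 49 genes matched the GRCm38.p6 RefSeq table, and 0 symbols changed. Of the 14 genes with several probe sets, 7 had another above the floor on some array. Values on all arrays are given for genes past 2-fold, the 3 brightest and 16 measured genes of a fixed list of 17, and for other members chosen after their values were seen. Genes of other lists were named by the largest change past 2-fold, up to 3 a list. The epididymal genes Lcn5 and Adam7, the neutrophil markers Prtn3, Elane and Camp, and the stress response targets below control at day 1 were chosen after seeing their values. Markers below the floor on all arrays were also named. No protein sequences were used. The members, lists and rules were chosen with earlier results of these data known. The scaling and floor steps were tested on simulated data. Python 3.11.15, pandas 2.3.3 and NumPy 2.4.6 were used. The number of arrays limits the precision.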

Additional observations from a re-analysis of the deposited data

How the results depend on the processing

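Scaling choices (deposited values as they are, quantile normalization, or the median change of genes above the floor set to 0), the mean over a gene's probe sets, and plain probe sets alone (46 of 49 genes) kept each count past 2-fold, and moved each median of the factor genes by less than its error. The deposited columns already shared their distribution (scale factors 0.999 to 1.001), so the scaling choices could change little and are a weak check. With the floor at the 25th percentile, 58 units, the count lower at day 3 became 1 (Eef2k) and at day 6 2 (Eef2k and Eif2ak3), and the day 6 median -0.065. Day 3 against day 1 then had 1 higher and 2 lower, and day 6 against day 3 had 1 lower. The genes added by that floor read under 173 on at least 1 of the arrays compared. A floor at 537 units, the 60th percentile, moved no count. At 1.5-fold the counts were 3 higher at day 1, 3 higher and 1 lower at day 3, and 1 lower at day 6. Day 3 against day 1 had 4 higher and 5 lower at 1.5-fold, and day 6 against day 3 had 1 lower. For these counts between treated days, and for those with the floor at 58 units, no share of all genes was computed. They therefore cannot be called few or many. The alternatives for comparisons between treated days were added after seeing the data. Eif4ebp1 at day 1 was between -1.19 and -1.17 (log2) under every alternative run. Of 351 recomputed changes of the 17 named genes, 343 moved by less than the error of a log2 change. Many could not move, such as a bright gene under another floor or the mean over 1 probe set, so this count is a weak check. Among these genes only Eif4ebp1 at day 1 was past 2-fold, so only that change could count as reversed, and it was not. No paired analysis was possible because each group has 1 array.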
